A study of Homo sapiens with 2 samples.

Results

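The genes described here are the receptors of the ERBB family and the growth factors that bind them: EGFR, ERBB2, ERBB3 and ERBB4, and the ligands AREG, EREG, TGFA, HBEGF, BTC and NRG1. They were chosen by name, and every array feature whose transcript accession maps to one of them was taken. This gave 9 features of 6 genes, out of 28973 features in all. EGFR had 3 features, ERBB3 had 2, and ERBB2, AREG, TGFA and NRG1 had 1 each. No feature in the values used mapped to ERBB4, EREG, HBEGF or BTC, so their expression is not analysed here. Their upstream windows are included in the motif counts below. The cells were T47D, an established human breast cancer cell line of luminal, oestrogen receptor positive type. One array measured T47D with a negative control lentivirus (NC) and the other measured T47D with a lentivirus carrying a short hairpin RNA against TRPS1 (shTRPS1), a GATA-type zinc finger repressor of luminal breast cells. Both groups therefore carried a lentivirus, each was a single array, and no source used here gives the hairpin sequence, the selection or the time after infection.

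ERBB receptors are transmembrane tyrosine kinases that pair with each other when a ligand binds. EGFR, ERBB3 and ERBB4 bind ligands, ERBB2 has no known ligand and acts as a partner, and ERBB3 has a weak kinase and signals through its partner, mainly to PI3K and AKT. AREG, EREG, TGFA, HBEGF and BTC bind EGFR, NRG1 binds ERBB3 and ERBB4, and all are cut from a membrane-bound precursor. In breast epithelium AREG is an oestrogen-induced ligand that carries the signal for duct growth, and ERBB2 is the receptor amplified in a subtype of breast cancer.

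Of the 14 luminal epithelial markers checked, 12 were above background on both arrays, among them KRT19 at 41417 and 40087, GATA3 at 22487 and 25544 and ESR1 at 541 and 582 in NC and shTRPS1. Of these 12, 9 were higher in shTRPS1 and 3 lower. MUC1 was the only luminal marker above background that differed at least 2-fold, at 3692 and 9335, and its second feature read 4108 and 8056. XBP1 read 6332 and 10550, and TFF1 and TFF3 were not above background on either array. Of 7 basal markers 4 had a feature, and these 4, all keratins, were above background on both arrays too. They went both ways: KRT14 read 598 and 2113 and KRT17 3735 and 10294, while KRT5 read 5273 and 4381 and KRT6A 2106 and 1208. Of 8 fibroblast markers 3 had a feature, each above background on at least 1 array: VIM read 665 and 1057 and FN1 556 and 361, and COL1A1 read 363, which is not above background, and 773. The 3 of 8 leukocyte markers and the 1 of 5 endothelial markers with a feature were not above it on either array. The part of the luminal marker, basal keratin and fibroblast gene differences in the results below was not tested. TRPS1 itself (NM_014112) read 726 in NC and 603 in the array labelled shTRPS1, which is 17.0% lower, a log2 difference of -0.27. The central 95% of the 1000 features nearest to it in signal ran from -1.06 to 1.12, so the knockdown does not stand out from other features at the RNA level, and every direction below rests on the label.

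The upstream sequences of 3 members are shown because TRPS1 binds DNA through a GATA-type zinc finger and because ERBB2 and AREG were above background on both arrays, while EGFR, which was faint, has a second start with other motifs. They are the bases just before a RefSeq start of each gene, on the plus strand of GRCh38.p14, written 5′ to 3′. Capitals mark the motifs that were searched on both strands. These were the GATA site (GATA with A or T before it and A or G after it), the cyclic AMP response element (TGACGTCA), the AP-1 site (TGANTCA with C or G at N), the GC box (GGGCGG), the CCAAT box (CCAAT), the TATA box (TATAAA) and the ETS site (CCGGAA). For ERBB2 only the 36 bases between its start and that of its divergent neighbour PGAP3 are printed, since the other 214 bases of its window lie inside PGAP3. No other ERBB2 start was searched, so the motifs before ERBB2 transcripts that begin elsewhere are not covered.
AREG, chr4:74444886-74445135: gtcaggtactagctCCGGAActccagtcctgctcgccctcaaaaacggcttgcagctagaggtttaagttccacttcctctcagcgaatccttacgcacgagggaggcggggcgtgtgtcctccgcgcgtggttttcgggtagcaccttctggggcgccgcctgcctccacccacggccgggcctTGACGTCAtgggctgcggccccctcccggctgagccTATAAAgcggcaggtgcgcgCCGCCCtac
EGFR, main start, chr7:55018767-55019016: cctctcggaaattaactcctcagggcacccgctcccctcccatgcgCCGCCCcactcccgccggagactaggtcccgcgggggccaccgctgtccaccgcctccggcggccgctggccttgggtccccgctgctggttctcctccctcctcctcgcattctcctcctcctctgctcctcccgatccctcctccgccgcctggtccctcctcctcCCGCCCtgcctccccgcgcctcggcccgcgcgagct
EGFR, second start inside the gene, chr7:55109589-55109838: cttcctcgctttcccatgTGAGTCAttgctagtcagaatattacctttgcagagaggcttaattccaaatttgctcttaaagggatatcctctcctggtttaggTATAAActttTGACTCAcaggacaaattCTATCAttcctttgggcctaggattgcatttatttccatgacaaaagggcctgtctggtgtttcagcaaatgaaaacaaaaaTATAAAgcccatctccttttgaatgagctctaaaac
ERBB2, chr17:39688058-39688093: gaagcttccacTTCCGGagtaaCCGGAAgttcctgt

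The AREG window held a cyclic AMP response element 65 bases before the start, a TATA box 29 bases before it, a GC box and an ETS site. A cyclic AMP response element was present in 1.65% of all 35116 windows of 250 bases and a TATA box in 10.7%. The EGFR window at the main start had no TATA box, 2 GC boxes and a GC content of 73.6%, against a median of 58.0% over all windows; 156 of its 250 bases also lie in the uncharacterised RefSeq locus LOC105375284. The window of the second EGFR start had a GC content of 38.8%, with 2 TATA boxes, 2 AP-1 sites and 1 GATA site. The short stretch before ERBB2 held 2 ETS sites, 25 and 14 bases before the start, on opposite strands, and an ETS site was present in 14.5% of all windows. Over the 10 windows found for 8 of the 10 genes, a GATA site was present in 1, against 22.3% of all windows, a GC box in 5 against 42.6%, an ETS site in 4 against 14.5%, a TATA box in 3 against 10.7%, a CCAAT box in 2 against 32.0%, and an AP-1 site and a cyclic AMP response element in 1 each, against 4.20% and 1.65%. The counts use each window in full, and the CCAAT box of ERBB2, 243 bases before its start, lies in the part inside PGAP3. The EREG window and both TGFA windows lie wholly inside other RefSeq loci, and the TGFA window with an ETS site also lies inside TGFA. A match describes the letters only and says nothing about binding, and which start is used in T47D was not measured.

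None of the 9 features reached a 2-fold difference between the arrays. A feature was called when its log2 values differed by at least 1 and it was above background, the 95th percentile of 60 olfactory receptor features, on at least 1 array. That level was an intensity of 397 in NC and 325 in shTRPS1. By this rule 0 of the 9 features were called higher and 0 lower, against 3.96% higher and 2.82% lower among all 16783 features above background. Only 5 of the 9 were above background on at least 1 array and could be called, and a count of 0 among 5 features is not far from these shares. Their median log2 difference (shTRPS1 minus NC) was 0.04, as it was over all 28973 features. With 1 array a group there is no replicate error and no test, so the single arrays limit the precision. In these bulk samples fewer cells expressing a gene and less RNA per cell cannot be told apart.

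**Figure D1:**
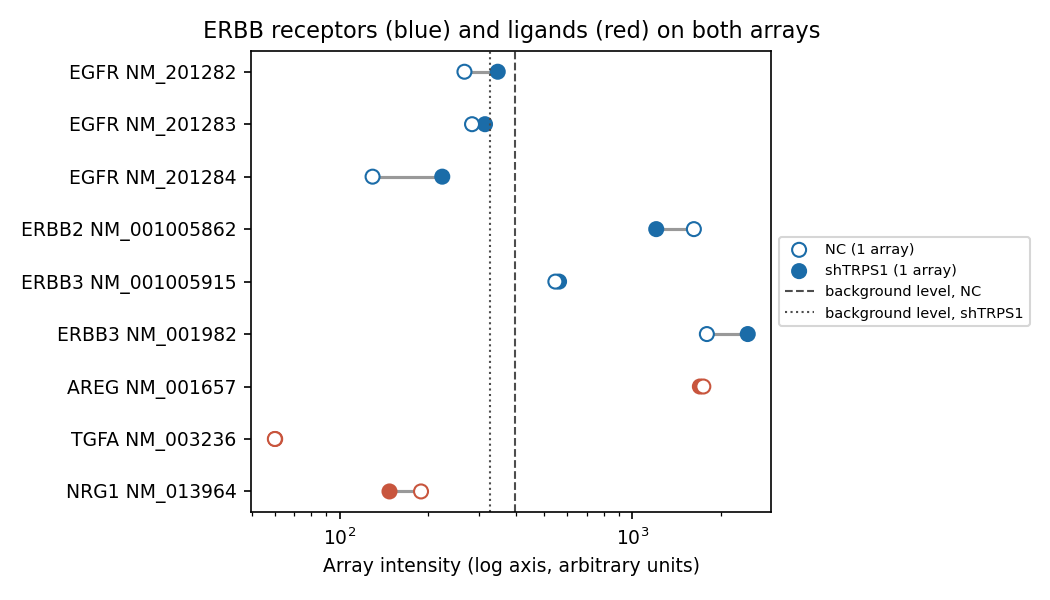
Array intensity (log axis, arbitrary units) of the 9 features of ERBB receptors (blue) and ligands (red), with an open circle for the NC array and a filled circle for the shTRPS1 array, and dashed and dotted lines at the background levels of 397 and 325. ERBB2, both ERBB3 features and AREG lie to the right of both lines, while TGFA, at 60.0 and 60.2, and NRG1 lie far to the left.

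ERBB2, the receptor with no known ligand, was lower in the shTRPS1 array. Its feature (NM_001005862) read 1622 in NC and 1206 in shTRPS1, 4.09 and 3.71 times the background level of each array. The log2 difference was -0.43, or 25.6% lower. Among the 1000 features nearest to it in signal the central 95% of differences ran from -0.90 to 0.90, and 31.3% were at least as far from 0, so the ERBB2 difference lay within the spread of its neighbours in brightness. The accession is a RefSeq variant with additional upstream exons, and no source used here says whether its probes also detect the other ERBB2 transcripts.

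ERBB3, the neuregulin receptor that feeds PI3K, was higher by one feature and nearly equal by the other. The feature of the full-length transcript (NM_001982) read 1796 in NC and 2478 in shTRPS1, a log2 difference of 0.46, or 37.9% higher. The feature of the short transcript (NM_001005915), which encodes a secreted receptor without the membrane and kinase parts, read 546 and 562, a log2 difference of 0.04. Both features were above background on both arrays, the full-length one at 4.53 and 7.61 times the level. Its difference lay inside the central 95% of the nearest 1000 features, -0.76 to 0.93, of which 24.7% were at least as far from 0.

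The gap between the ERBB3 features, 0.42 on the log2 scale, was of a size common among genes with several features. In 518 genes whose 2 brightest features were both above background, 32.6% had a gap at least as large, and the median absolute gap was 0.28. The differences of the 2 features correlated at r = 0.462 across these genes, a description within the same 2 arrays and not a replicate. The SD of a single feature's difference around its gene was 0.34, so ERBB2 at -0.43 and full-length ERBB3 at 0.46 stood only a little further from 0 than 1 such SD. A change in the proportion of short and full-length ERBB3 was therefore not detectable with these arrays.

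**Figure D2:**
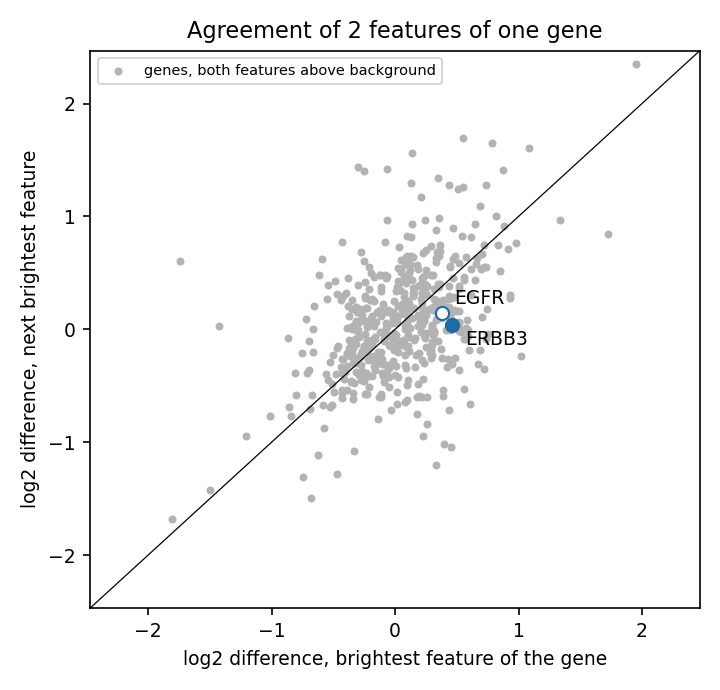
log2 difference (shTRPS1 minus NC) of the brightest feature of a gene on the x axis and of its next brightest feature on the y axis, with 1 grey point for each of 518 genes with both features above background, and the line of equal values. ERBB3 (filled, 0.46 and 0.04) lies inside the cloud of points, as does EGFR (open, 0.38 and 0.15), whose second feature was not above background.

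EGFR, the receptor for AREG and TGFA, had a faint signal in both arrays and values that were all higher in shTRPS1. Its 3 accessions are RefSeq variants that encode shortened forms of the receptor without the kinase, and no source used here places their probes relative to full-length EGFR. The feature NM_201282 read 267 in NC and 347 in shTRPS1, so that only the shTRPS1 value exceeded its background, by 1.07 times. The feature NM_201283 read 283 and 314, and NM_201284 read 130 and 224, with none of these values above background. Their log2 differences were 0.38, 0.15 and 0.79. No fold is given for EGFR, since the single value above background in shTRPS1 was still under the background level of the NC array. The widest of the 3, NM_201284, lay inside the central 95% of features of like signal, -1.56 to 1.53, and 27.9% of these were at least as far from 0. The 3 features share a gene and a pair of arrays, so their common sign counts as 1 observation.

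**Figure D3:**
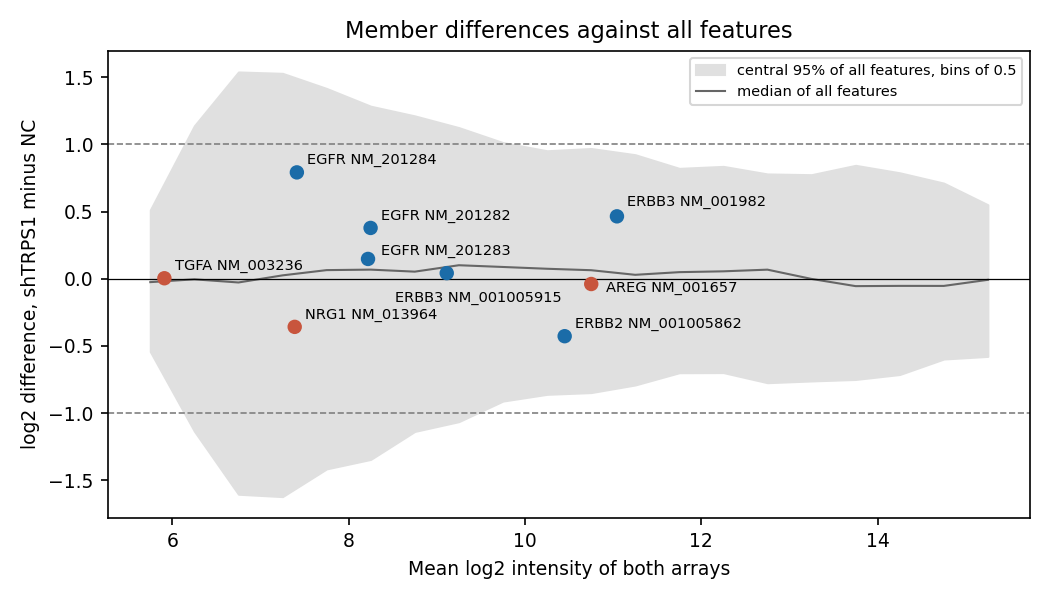
Mean log2 intensity of both arrays (x axis) against the log2 difference, shTRPS1 minus NC (y axis), of the 9 features, with receptors in blue and ligands in red, the grey band holding the central 95% of all features in bins of 0.5, and dashed lines at a 2-fold difference. All 9 points lie inside the band, with ERBB2 at -0.43 and full-length ERBB3 at 0.46 among the brighter features and EGFR NM_201284 at 0.79 among the dim ones.

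AREG, the oestrogen-induced EGFR ligand whose window carries the cyclic AMP response element, was the only ligand above background. It read 1747 in NC and 1700 in shTRPS1 (NM_001657), 4.40 and 5.23 times the background level. The log2 difference was -0.04, and 92.6% of the 1000 features of like signal were at least as far from 0. AREG thus differed by less than most features of its brightness.

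The remaining ligands with a feature were not above background on either array. TGFA, an EGFR ligand, read 60.0 in NC and 60.2 in shTRPS1 (NM_003236), near the lowest intensities of the table. NRG1, the ligand of ERBB3 and ERBB4, read 190 and 148 (NM_013964, 1 of many NRG1 transcripts), a log2 difference of -0.36. No fold is given for either gene, and a difference in them was not detectable at these signals.

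The genes through which ERBB receptors act were described by lists, with each gene represented by its brightest feature. Of 139 listed genes of the pathway and of the chromosomal neighbourhood of ERBB2, members left out, 113 were measured and 71 were above background on at least 1 array. Of these 6 were called higher and 3 lower, against 3.78% higher and 2.37% lower among all 6949 genes above background. The median log2 difference over the 71 genes was 0.33, and 48 of them were positive, against a median of 0.08 and 56.9% positive over all genes above background. Of the 71, 55 were above background on both arrays and the others on 1 only. The ERBB-induced transcripts held 5 of the 6 calls higher, and several of them were already known to differ in these arrays. The totals are therefore no independent evidence of a shift in the pathway.

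Ligand shedding genes, the proteases and carriers that release ligands from the membrane, gave no call in either direction among 4 genes above background of 10 measured. RHBDF1, an inactive rhomboid that controls ADAM17, read 1195 in NC and 1771 in shTRPS1, and ADAM15, a metalloproteinase, read 2697 and 3758. FURIN, which activates the ADAM proteases, read 1081 and 731. ADAM17, the main sheddase of AREG and TGFA, was not above background, at 178 and 131, nor was ADAM10 at 83.4 and 93.9. Of the other EGF-family ligands listed, none of 6 had a feature.

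Adaptors and effectors at the receptor gave no call among 13 genes above background of 19 measured, with a median log2 difference of 0.12. GRB2, the adaptor that links receptors to RAS, read 3617 in NC and 3695 in shTRPS1. SHC1, the adaptor that recruits it, read 1359 and 2039, a log2 difference of 0.59, while that of its second feature was 0.08. STAT5A, a transcription factor downstream of ERBB4 and of prolactin, read 698 and 452, the most negative log2 difference of the 13 at -0.63. SRC, a kinase that works with EGFR, read 383 and 671, of which only the second was above background.

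The RAS to ERK kinases gave no call by brightest feature either, with 8 genes above background of 12 measured and a median of 0.02. MAPK3, an ERK, had a log2 difference of 0.45 in its brightest feature, but -1.04 in its second. That second feature was above background on at least 1 array and met the 2-fold rule. HRAS read 9680 in NC and 9903 in shTRPS1. ARAF read 1575 and 2423, and MAP2K1, the kinase above ERK, read 570 and 447.

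In the PI3K and AKT module 1 of 11 genes above background was called lower and 0 higher, and the median was -0.03. RPS6KB1, the S6 kinase downstream of mTOR, read 769 in NC and 384 in shTRPS1, a difference that only just met the 2-fold rule. With a pseudocount of 100 its difference was -0.84. MTOR read 536 and 1028 and AKT1 read 2718 and 4840, log2 differences of 0.94 and 0.83, while AKT2 read 1268 and 805, a difference of -0.66. The kinases of this module thus lay on both sides of 0.

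**Figure D4:**
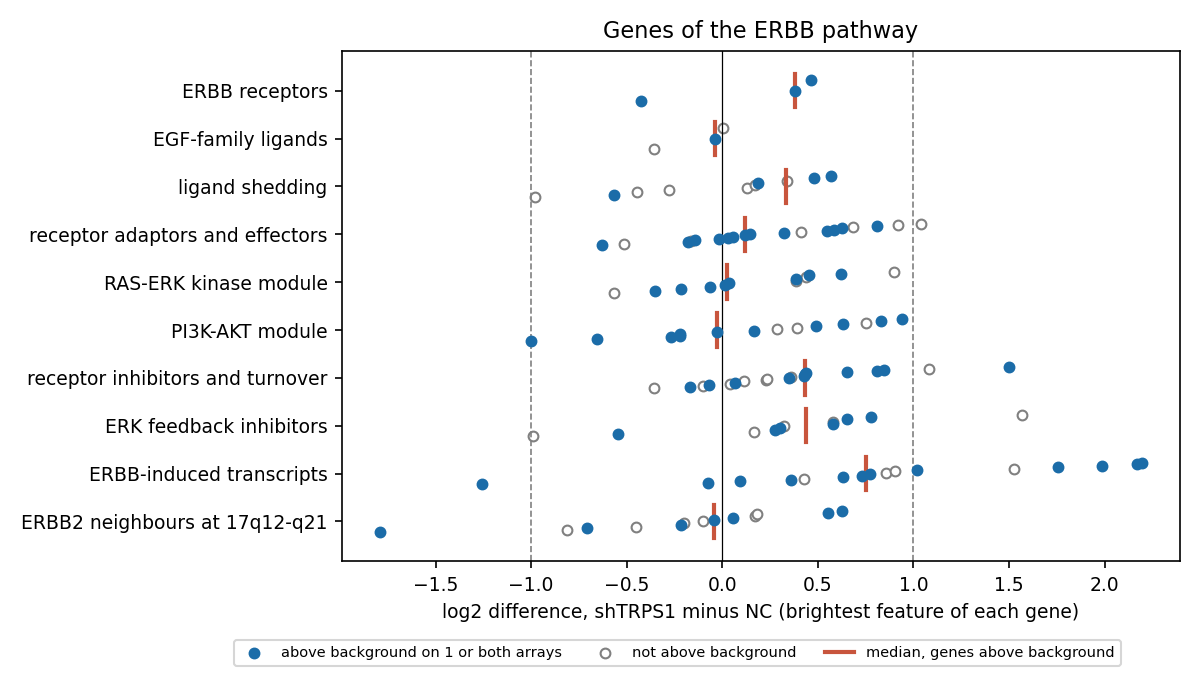
log2 difference, shTRPS1 minus NC, of each measured gene of 10 pathway lists (brightest feature), filled where the gene was above background on at least 1 array and open where it was not, with a red bar at the median of the filled points and dashed lines at 2-fold. The filled points of the ERBB-induced transcripts reach furthest to the right, up to 2.19, while no receptor or ligand passes either dashed line.

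Genes that restrain or degrade the receptors were mostly on the positive side, with 9 of 11 genes above background positive and a median of 0.43. Of the 11, 8 were above background on both arrays, while STAM, ERRFI1 and SH3KBP1 passed only in shTRPS1. The count of positive genes and the median therefore rest in part on genes that passed through their shTRPS1 value. STAM, an endosomal sorting protein that handles ubiquitinated receptors, was the only one called. It read 258 in NC, which is not above background, and 729 in shTRPS1, so it was at least 1.84-fold higher. ERRFI1, a direct inhibitor of the EGFR kinase induced by ERBB signalling, read 335, not above background, and 602, so it was at least 1.52-fold higher. LRIG1, a membrane protein that lowers ERBB levels, read 554 and 969. CBL, the ubiquitin ligase of EGFR, read 420 and 661, and RNF41, the ubiquitin ligase that degrades ERBB3, read 1017 and 1377. None of these 4 reached 2-fold. They and the other uncalled genes named here were chosen after their values were seen.

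ERK feedback inhibitors gave no call among 6 genes above background of 11 measured, with 5 of the 6 positive and a median of 0.44. Only 2 of the 6, IER3 and DUSP4, were above background on both arrays. DUSP5, DUSP7 and SPRY4 passed only in shTRPS1, at 380, 332 and 344, all still under the NC background of 397. These genes give no direction, so the count of positive genes and the median rest in part on the lower shTRPS1 background. SPRY4, a sprouty inhibitor of RAS signalling, read 201 in NC and 344 in shTRPS1, only the second above its background. IER3 read 6940 and 10358, and DUSP4, an ERK phosphatase, read 1217 and 833. DUSP6, the ERK phosphatase most often used as a readout of the pathway, read 59.6 and 177, not above background on either array.

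Transcripts known to be induced by ERBB ligands held 5 of the 6 calls upward. Of 12 genes above background, 5 were called higher and 1 lower, and the median was 0.75. Of the 12, 9 were above background on both arrays, while FOS, FOSB and ATF3 passed only in shTRPS1. The calls upward and the median therefore rest in part on genes that passed through their shTRPS1 value. Among the 9, KLF6 and CCN1 were called higher and ETV4 lower. FOSB read 169 in NC and 771 in shTRPS1 and was at least 1.94-fold higher, and FOS read 106 and 478 and was at least 1.21-fold higher. Both are AP-1 subunits of the immediate early response, and neither was above background in NC. CCN1, a secreted matrix protein, read 1184 and 4697, 3.97-fold higher, and both values exceeded background. The other calls upward were KLF6, at 649 and 2195, and ATF3, at 272 and 551. ATF3 was not above background in NC and was at least 1.39-fold higher, and it was called no longer after median-centring, quantile normalization or loess or with a pseudocount of 100, each of which left 4 calls upward. ETV4, an ETS factor induced through ERK, was the call in the opposite direction, at 1064 in NC and 446 in shTRPS1, 2.39-fold lower, again with both values above background. CCND1, the cyclin of G1, read 4176 and 3971, and FOSL1 read 1776 and 1896. These genes respond to many stimuli besides ERBB ligands, and several were already known to differ in these arrays, so the list is no independent evidence about the receptors.

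The genes beside ERBB2 on chromosome 17 did not share its direction throughout. Of 13 measured genes 7 were above background, 3 of these positive and 4 negative, with a median of -0.04. MIEN1, which overlaps the end of ERBB2 on the opposite strand in RefSeq, read 4674 in NC and 2865 in shTRPS1, a log2 difference of -0.71. PGAP3, whose start is divided from that of ERBB2 by the 36 bases printed above, read 391 and 336; the NC value was not above its background, so its place among the 4 negative genes gives no direction. GRB7, an adaptor that binds ERBB2, read 969 and 1009, and STARD3 read 1407 and 2168, a difference of 0.62. PPP1R1B, which encodes a phosphatase inhibitor, was the only one called. It read 615 in NC and 178 in shTRPS1, at least 1.89-fold lower, and its second feature read 260 and 84.7, not above background on either array.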

How the data were processed

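The authors deposited 1 intensity per transcript accession (feature) for each of the 2 arrays, on a linear scale, from NimbleGen one-colour Cy3 arrays per the labels' protocols. The submitters' processing notes name RMA; no source used here gives its version, its steps or the genome build. No value was under 50, by a rule not stated. From these, log2 values and differences (shTRPS1 minus NC) were computed. Of the features, 12598 received a symbol by RefSeq accession, giving 11564 genes, and 16375 were unnamed. The median intensity was 402 in NC and 414 in shTRPS1, and the arrays correlated at r = 0.961 across features. Calls needed a 2-fold difference and 1 array above background. Where 1 array was dim, its background level replaced it and the fold is given as "at least". No test was possible with 1 array a group. The 8 sample columns of a second table have names that match no label and were not used. Named were TRPS1, all member features and, per pathway list, up to 3 called genes each way; others were chosen after their values were seen. Members and lists were chosen with earlier results of these data known. The calling procedure was tested on simulated data, with planted differences well beyond the 2-fold rule in bright named features only. That simulation does not cover differences near the rule or features near background. Promoter sequences are from RefSeq, GRCh38.p14. Python 3.11.15, numpy 2.4.6, pandas 2.3.3, statsmodels 0.14.6 and matplotlib 3.10.9 were used. Alternatives covered the scaling, background level, threshold, pseudocount and choice of feature.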

Additional observations from a re-analysis of the deposited data

How the results depend on the processing

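The counts of 0 called members, higher and lower, were the same under all 10 alternatives. Since no member difference exceeded 0.79, the 3-fold threshold and the other background settings could not have changed them, so only the rescalings and the 1.5-fold threshold bear on this. Each of the 36 recomputed member differences moved by less than the within-gene SD of 0.34. The largest shift, 0.29, was that of EGFR NM_201284, from 0.79 to 0.50 on the log2(intensity + 100) scale. ERBB2 ranged from -0.49 to -0.40 and full-length ERBB3 from 0.40 to 0.46, while TGFA and short ERBB3, both near 0, took either sign. Over all features, the counts called higher and lower were 1384 and 1259 with no background filter, 263 and 165 with the brightest feature of each gene only, 2418 and 1520 at 1.5-fold, 126 and 117 at 3-fold, and 349 and 284 with a pseudocount of 100. Of 28 recomputed differences of the 7 named pathway genes all kept their sign and 27 stayed at least 2-fold, the exception being RPS6KB1 with the pseudocount. Of 288 recomputed counts over the lists, markers included, 28 moved, 20 of them at the 1.5-fold or 3-fold threshold. The ERBB-induced transcripts called higher were 4 after any rescaling and with the pseudocount, and 6 with no background filter. With the 90th percentile as background or with no filter, receptor adaptors had 1 gene called higher and receptor inhibitors 2, and with no filter ERK feedback inhibitors had 1 and luminal markers 2. With the pseudocount the PI3K module had 0 called lower and fibroblast markers 0 called higher. Signal over background limits EGFR, TGFA and NRG1, and 1 array a group limits every value. No paired analysis was possible because each group had 1 array.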
